A study of Sorghum bicolor with 12 samples.

Results

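P5CS2 (Sobic.003G356000) and the dehydrin DHN1 (Sobic.009G116700) are 2 of the 34129 genes named in a deposited table of RNA levels from sweet sorghum stem. They were chosen by ID as dehydration markers, with the FPKM values of all 7 columns of the table already known, so all that follows describes their levels and none of it is a test. Each had 1 locus of its own, shared with no other gene, in both parts of the table. The IDs place P5CS2 on chromosome 3 and DHN1 on chromosome 9. The table gives IDs without gene names. The names of both genes came with their IDs when the pair was chosen, and nothing in the data used here checks them.

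RNA came from the middle internode of the stem of the hybrid CSH22SS (Sorghum bicolor), grown in an open field. Of 6 groups, 3 were booting plants given the codes Ds1, Ds2 or Ds3, 1 was booting without a code (the panicle is then still inside the flag-leaf sheath), and the others were the milky stage of the grain and physiological maturity. A header in the table ties the Ds groups to water limitation, and the labels used here do not say what the codes stand for, how dry the plants were, or whether the numbers are an order in time. Each group had 2 libraries, which the authors combined into 1 FPKM value (fragment counts normalized for transcript length and sequencing depth), so none of the values has a replicate error. Whether the 2 libraries came from separate plants is not stated, and read depth is unknown.

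P5CS2 encodes delta-1-pyrroline-5-carboxylate synthase, the enzyme that turns glutamate towards proline and sets the pace of that route. Proline is a compatible solute that plant cells build up when water is short. Dehydrins are very hydrophilic proteins of the late embryogenesis abundant class, made in drying seeds and in vegetative tissue that loses water, and many of their genes respond to abscisic acid. The first gene thus stands for the making of an osmolyte, and the second for a protective protein.

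In the water-limiting part of the table both genes were higher in all 3 Ds groups than in booting, but they differed in size and in order. P5CS2 read 1224 FPKM in Ds1, 406 FPKM in Ds2 and 303 FPKM in Ds3, against 123 FPKM in booting. P5CS2 thus had one order of levels, Ds1 above Ds2 above Ds3 above booting. DHN1 read 1197 FPKM in Ds1, 2284 FPKM in Ds2 and 2143 FPKM in Ds3, against 0.664 FPKM in booting. Its order was Ds2, Ds3, Ds1 and then booting, with Ds2 only 1.07 times Ds3. With no spread between libraries, these orders are those of the deposited values and none of their steps could be tested.

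**Figure D1:**
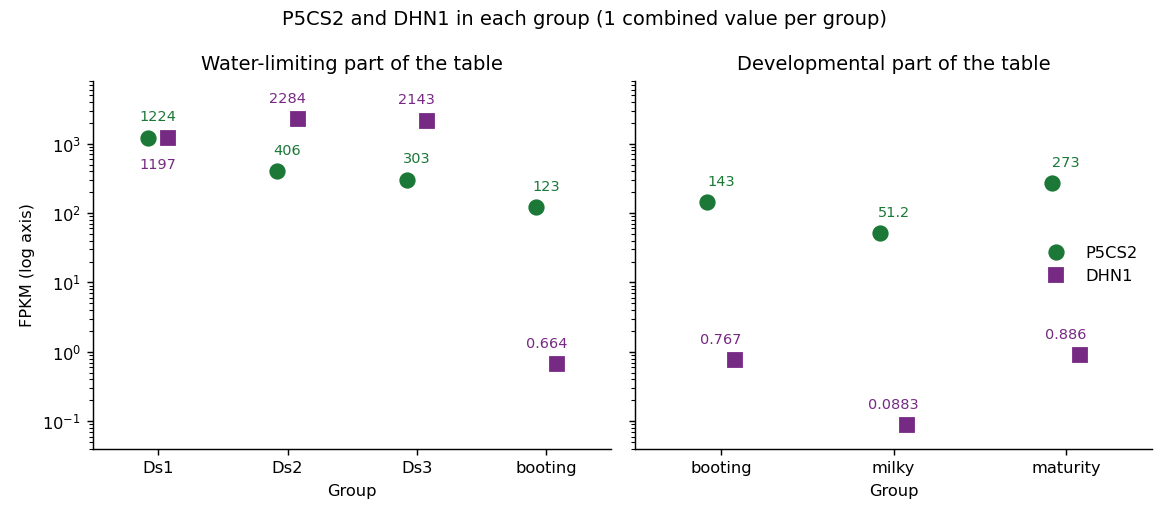
FPKM (log axis) of P5CS2 (circles) and DHN1 (squares) in each group, with the water-limiting part of the table on the left and the separately scaled developmental part on the right; each point is the authors' 1 combined value of 2 libraries. DHN1 lies under 1 FPKM in booting, milky and maturity and between 1197 and 2284 FPKM in the Ds groups, while P5CS2 lies between 51.2 and 1224 FPKM throughout.

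P5CS2 in Ds1 was 9.93 times its booting level in FPKM, a log2 change of 3.30 on the FPKM + 1 scale. All ratios are of FPKM as deposited, and all log2 changes are on FPKM + 1. A size rule was used in place of a test: a gene locus was called higher or lower at a ratio of 4 or more on FPKM + 1, if the group with more had 10 FPKM or above. By this rule 2 of the 2 genes were higher in Ds1 than in booting, beside 8.97% of 10320 loci. In Ds2, P5CS2 was 3.29 times booting (log2 change 1.71), and in Ds3 it was 2.46 times booting (log2 change 1.29). Both are short of the size rule, so that 1 of the 2 genes, DHN1, passed it in Ds2 (beside 8.33% of 10336 loci) and in Ds3 (beside 7.31% of 10276 loci). The values were known when the genes were chosen, and nothing is read from the shares.

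DHN1 had log2 changes of 9.49 in Ds1, 10.42 in Ds2 and 10.33 in Ds3 against booting. These sizes depend on the pseudocount, since the booting value is under 1 FPKM: with a pseudocount of 0.1 FPKM they were 10.61, 11.55 and 11.45, and with 5 FPKM they were 7.73, 8.66 and 8.57. Set in order among all loci that reach 10 FPKM, DHN1 had the highest log2 change in Ds2 and the second highest in Ds1 and in Ds3. The 1 locus above it in Ds1 and in Ds3 was Sobic.009G119200. With the other pseudocounts its place lay between 1 and 6 in these 3 comparisons. P5CS2 took place 437 of 10320 in Ds1, 1042 of 10336 in Ds2 and 1307 of 10276 in Ds3.

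**Figure D2:**
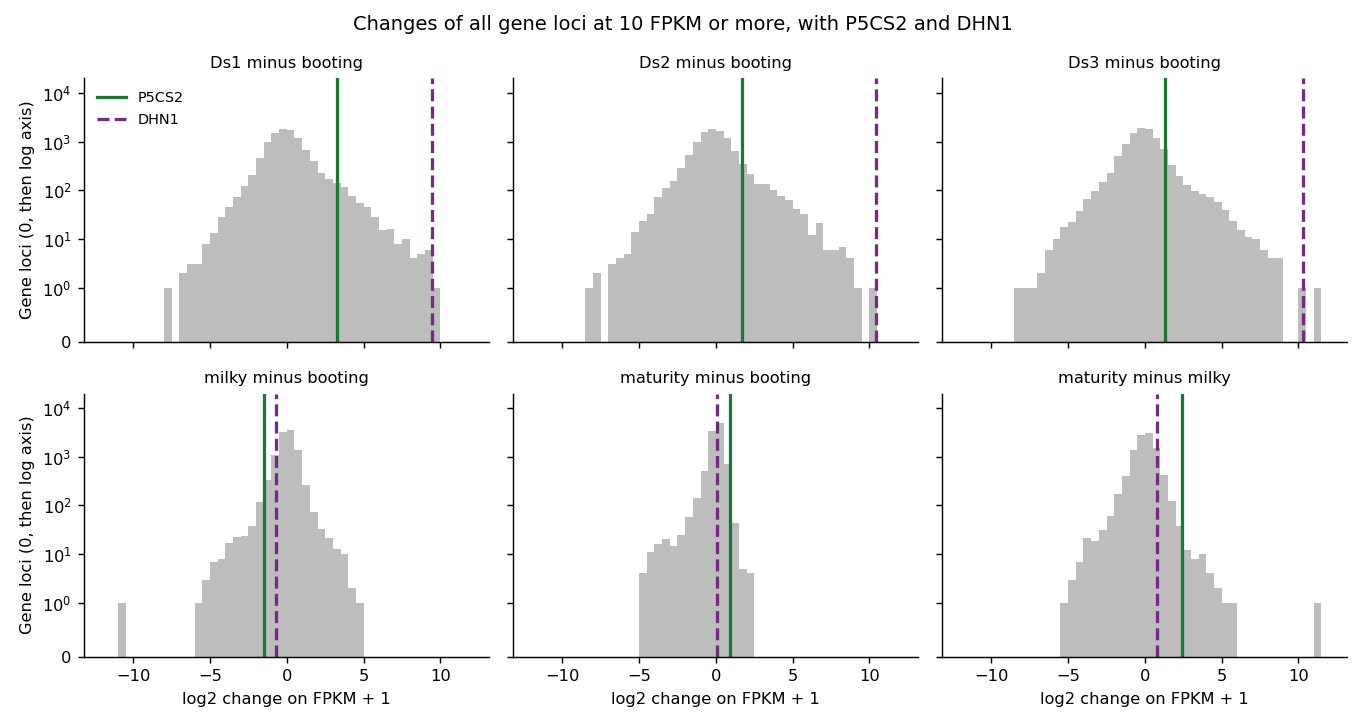
Number of gene loci (0, then a log axis) by log2 change on FPKM + 1, in bins of 0.5, for loci with at least 10 FPKM in the higher group of each comparison; lines mark P5CS2 (solid) and DHN1 (dashed). DHN1 stands at the upper end of all 3 Ds comparisons, at 9.49, 10.42 and 10.33, and P5CS2 moves inward over Ds1, Ds2 and Ds3, at 3.30, 1.71 and 1.29; DHN1 does not reach 10 FPKM in the lower row, so its line there marks a locus that is not in the bars.

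The level of each gene within its own group gives the same directions on another footing, but not the same sizes. DHN1 was the 48th most abundant of 33391 gene loci in Ds1 and the 19th in both Ds2 and Ds3, against place 17835 in booting. It made up 0.135%, 0.335% and 0.331% of all FPKM in Ds1, Ds2 and Ds3, against 0.000139% in booting. P5CS2 was already among the abundant loci in booting, at place 580, and stood at place 46 in Ds1, 123 in Ds2 and 167 in Ds3. Its share of all FPKM was 0.138%, 0.0595% and 0.0468% in Ds1, Ds2 and Ds3, against 0.0258% in booting. All FPKM summed to 885374 in Ds1, 682190 in Ds2 and 647608 in Ds3, against 477138 in booting. Rises read from the shares of either gene are therefore smaller than its FPKM ratios, most of all in Ds1.

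Few loci were as low as DHN1 in booting and high in the Ds groups. Of 16553 gene loci under 1 FPKM in booting, 310 (1.87%) reached 10 FPKM in at least 1 Ds group. A level of at least 100 FPKM in all 3 Ds groups was met by 12 loci, and of at least 1000 FPKM by 1, DHN1 itself. These limits were set after the values of DHN1 were known.

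Because FPKM is scaled by length, the levels of the 2 genes can be set against each other in FPKM. Whether the ratios hold for numbers of transcripts was not tested. The FPKM of DHN1 was 0.978 times that of P5CS2 in Ds1, 5.63 times in Ds2 and 7.08 times in Ds3, against 0.00539 times in booting. In FPKM the 2 genes thus stood near 1 to 1 in Ds1, and DHN1 read higher in Ds2 and Ds3. In booting the FPKM of P5CS2 was 186 times that of DHN1, which read under 1 FPKM there.

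P5CS2 was lower, and DHN1 higher, in Ds2 and Ds3 than in Ds1. P5CS2 was 0.332 times its Ds1 level in Ds2 (log2 change -1.59) and 0.247 times in Ds3 (log2 change -2.01). DHN1 was 1.91 times its Ds1 level in Ds2 (log2 change 0.93) and 1.79 times in Ds3 (log2 change 0.84). Between Ds3 and Ds2 the log2 changes were -0.42 for P5CS2 and -0.09 for DHN1. By the size rule P5CS2 was lower in Ds3 than in Ds1, 1 of the 2 genes beside 3.93% of 9441 loci, but only just. It missed the rule, at log2 changes of -2.00, -1.74 and -1.44, with a pseudocount of 5 FPKM, with totals rescaled without the 10 most abundant loci of each group, and with quantile normalization. Neither gene passed it between Ds2 and Ds1, where 0.831% of 9145 loci were higher and 2.42% lower, or between Ds3 and Ds2, where 0.179% of 8938 loci were higher and 0.336% lower.

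Among the 926 loci higher in Ds1 than in booting by the size rule, both courses had company. Like P5CS2, 436 loci (47.1%) had Ds1 above Ds2 above Ds3 and all 3 above booting, and 447 (48.3%) had a Ds3 level no more than 0.5 times that of Ds1. Like DHN1, 293 loci (31.6%) read higher in Ds2 than in Ds1, and 120 (13.0%) read at least 1.5 times higher. These loci were picked for a high Ds1 level, so the 2 counts do not show which course is the commoner.

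How the libraries were scaled bears on the Ds1 values. The 10 most abundant loci held 29.8% of all FPKM in Ds1, 22.8% in Ds2 and 20.6% in Ds3, against 6.51% in booting. When totals were rescaled without the most abundant loci, the median log2 change between Ds1 and booting moved to -0.44, against -0.04 as deposited. This median was taken over gene loci with at least 10 FPKM in the higher group. P5CS2 then had a log2 change of 2.89 in Ds1 and DHN1 one of 9.18, which is 3.33 and 9.62 above that median, against 3.35 and 9.54 above it as deposited. With that rescaling higher loci were 45.4% of those past the size rule between Ds1 and booting, against 64.8% as deposited, and between Ds2 and Ds1 37.2% against 25.6%, and between Ds3 and Ds1 41.2% against 24.1%. The direction of both genes was the same in all 9 comparisons under each of the alternatives tried.

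**Figure D3:**
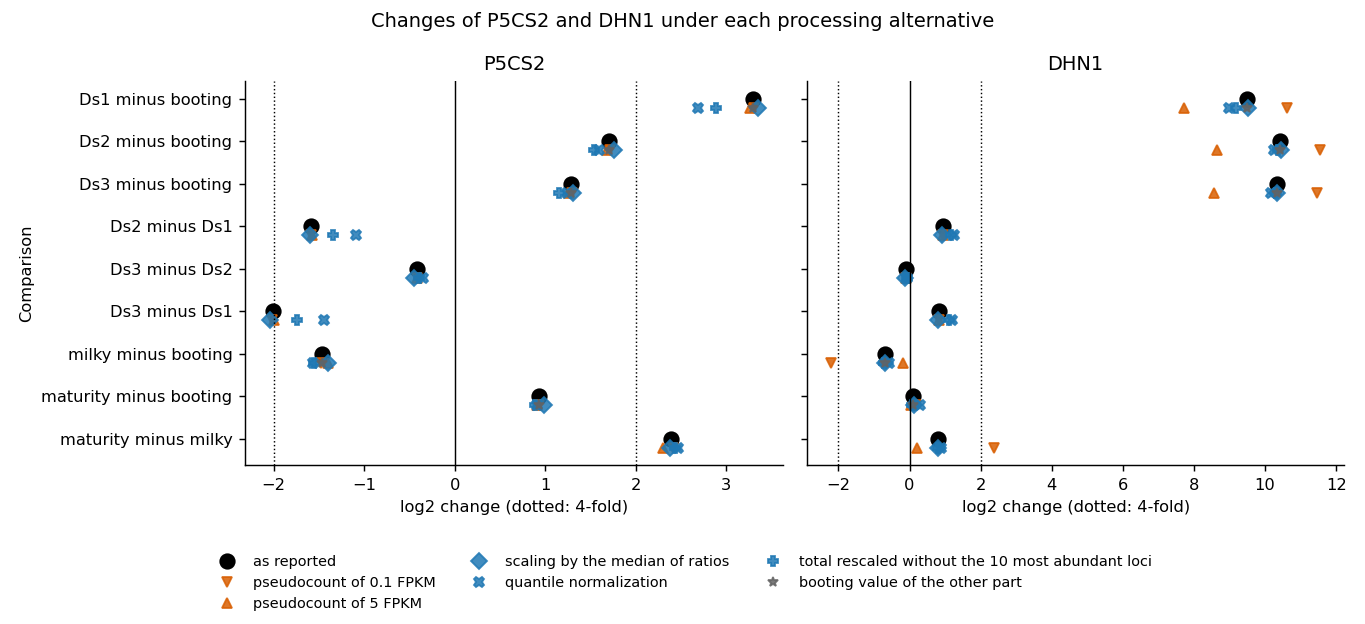
Log2 change of P5CS2 (left) and DHN1 (right) in 9 comparisons, as reported (black circles) and, just below each, under other pseudocounts, other scalings and the booting value of the other part of the table. That booting value was first rescaled by the median ratio of the booting columns. Dotted lines mark a 4-fold change. P5CS2 in Ds1 lies between 2.69 and 3.36 under the alternatives. Its Ds3 minus Ds1 change lies between -2.05 and -1.44, on both sides of the dotted line. Scaling every group to the same total FPKM was not among the alternatives. By share of all FPKM the rise of P5CS2 in Ds1 is smaller than as reported.

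In the developmental part, which was scaled apart from the other, P5CS2 was lowest at the milky stage. It read 143 FPKM in booting, 51.2 FPKM in milky and 273 FPKM in maturity. Milky was 0.358 times booting (log2 change -1.46) and maturity 1.91 times booting (log2 change 0.93), neither past the size rule. Between maturity and milky the ratio was 5.33 (log2 change 2.39), which is past it: 1 of the 2 genes was higher, beside 0.746% of 10184 loci. Only 40 of these loci had a larger change in that direction. Against booting, 0.781% of 10244 loci were higher and 1.18% lower in milky, and 0.0401% of 9976 loci were higher and 0.912% lower in maturity.

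A dip of this kind was uncommon. Of 10501 gene loci with at least 10 FPKM at some stage, 447 (4.26%) had a milky level no more than 0.5 times both booting and maturity. In 115 (1.10%) the milky level was no more than 0.5 times booting and 0.25 times maturity, as for P5CS2. These limits too were set with the values known.

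DHN1 stayed under 1 FPKM over development. It read 0.767 FPKM in booting, 0.0883 FPKM in milky and 0.886 FPKM in maturity. The median over all gene loci was 1.26, 1.12 and 0.945 FPKM in the same 3 groups, so DHN1 lay below the median in each, and furthest below it in milky. It never reached 10 FPKM there and could not be counted by the size rule. Its lowest value, like that of P5CS2, was the milky one, but values this small rest on an unknown number of reads.

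The same booting libraries were read in both parts of the table. P5CS2 read 0.863 times its developmental booting value in the water-limiting part, and DHN1 0.865 times. Over 8653 genes with at least 10 FPKM in either column the median ratio was 0.863, and 95% of genes lay between 0.537 and 1.002. Both members of the pair thus lay close to the median. Single genes could read nearly 2 times apart in the same libraries, a gap that includes the median shift of 0.863. Each set against booting of its own part, the log2 changes of P5CS2 were 0.93 in maturity and 1.29 in Ds3, and those of DHN1 were 0.09 in maturity and 10.33 in Ds3.

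The 5 genes whose pattern was most like each of the pair were found by the root mean square difference over 5 log2 changes against booting (milky, maturity, Ds1, Ds2 and Ds3), among the 10780 genes that had an unshared locus in each part and at least 10 FPKM somewhere. The 5 changes are drawn against 2 readings of the same booting libraries, so they are not independent. Nearest to P5CS2 were Sobic.010G001600, Sobic.006G122500, Sobic.009G161700, Sobic.001G398500 and Sobic.001G513700, with differences of 0.55 to 0.60 in log2. Sobic.010G001600 read 296, 194 and 150 FPKM in Ds1, Ds2 and Ds3, against 53.6 FPKM in booting. It too was lowest at the milky stage, with 62.1, 24.5 and 66.6 FPKM in booting, milky and maturity. All 5 were lower in milky than in booting and had their highest Ds value in Ds1. None matched its rise at maturity, where their log2 changes against booting were 0.10 to 0.44, against 0.93 for P5CS2.

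Nearest to DHN1 were Sobic.009G119200, Sobic.001G479000, Sobic.001G038050, Sobic.004G337132 and Sobic.001G492000, with wider differences of 1.12 to 1.60. Their booting levels differed widely, and not all were as low as that of DHN1. Sobic.001G038050 and Sobic.004G337132 read 74.5 and 97.0 FPKM in booting of the water-limiting part, and 49021 and 65970 FPKM in Ds1. Sobic.001G479000 read 1.40 FPKM in that booting column and 1416 FPKM in Ds1. Sobic.009G119200 read 1060, 323 and 2530 FPKM in Ds1, Ds2 and Ds3, against 0.0730 FPKM in booting. Its Ds2 value was its lowest of the 3, whereas that of DHN1 was its highest. Sobic.001G492000 was the 1 of the 5 with the order of DHN1, at 98.9, 608 and 434 FPKM in Ds1, Ds2 and Ds3, against 0.00781 FPKM in booting. The difference between P5CS2 and DHN1 themselves was 6.28, with a Pearson r of 0.75 over the 5 changes. The table does not say what any of these 10 genes encodes.

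**Figure D4:**
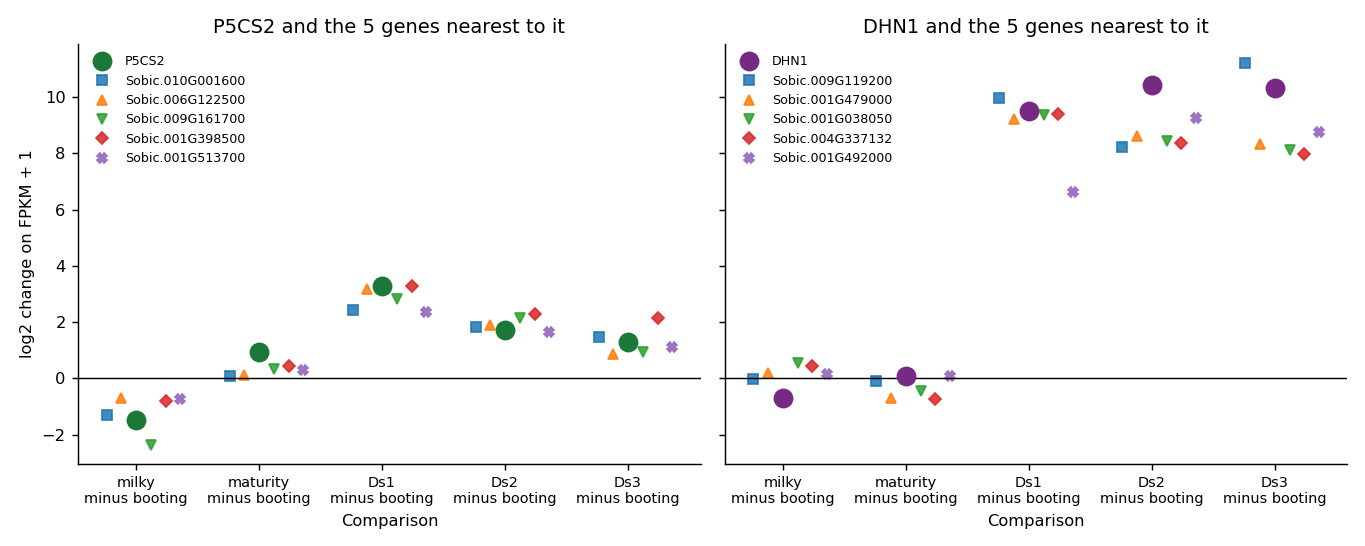
Log2 change on FPKM + 1 against booting in milky, maturity, Ds1, Ds2 and Ds3 for P5CS2 (left, large circles) and DHN1 (right, large circles) and the 5 genes with the smallest root mean square difference from each. The neighbours of P5CS2 lie within 0.55 to 0.60 of it on that measure, and those of DHN1, which spread most in Ds1 and Ds3, within 1.12 to 1.60.

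As a check of the tissue, C4 phosphoenolpyruvate carboxylase (Sobic.010G160700, a leaf mesophyll gene) stayed between 0.0612 and 0.180 FPKM in all 7 columns. The 3 cellulose synthases of secondary walls (Sobic.001G224300, Sobic.002G205500 and Sobic.003G296400) read 0.202 to 1.83 FPKM over the Ds groups, against 16.9 to 34.9 FPKM in booting. Pyruvate phosphate dikinase (Sobic.009G132900, a gene of green tissue) read 9.85 to 19.3 FPKM over the Ds groups, against 37.0 FPKM in booting, and 42.9, 80.0 and 16.8 FPKM in booting, milky and maturity of the developmental part. These 5 names were recalled from the sorghum literature. The wall genes were also low later in development, at 0.138 to 3.73 FPKM in milky and 0.307 to 1.95 FPKM in maturity, against 18.9 to 40.4 FPKM in booting of that part. Their part in the Ds values of P5CS2 and DHN1 was not tested. In bulk tissue, fewer cells of a type and less RNA per cell cannot be told apart.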

How the data were processed

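RNA of 12 libraries in 6 groups of 2 was made with a stranded total RNA kit after Trizol extraction, per the labels' protocols. The authors deposited FPKM values, 1 per group, in a table with 7 value columns in 2 separately scaled parts. Booting has 1 column in each part, and both hold the authors' deposited FPKM. The submitters' processing notes list Bowtie2 2.2.9, HISAT2 2.0.5, Cuffdiff and cutadapt 1.8.1 without role or setting. A build was not given in the sources used here.

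Comparisons were made within a part. Ratios are of FPKM as deposited, with no pseudocount; log2 changes and the size rule use FPKM + 1, a scale that understates changes of low genes. Loci with no gene name (1773 in the developmental part and 1327 in the water-limiting part) were left out of counts and places. With 1 value per group no p-value or interval can be given. The pair, the size rule and the lists were chosen with earlier results of these data known. Genes named besides the pair were the 5 nearest in pattern to each and the tissue markers; the IDs next in number were added without reading their values. The RefSeq gene table (NCBIv3) matched 0 of 34129 IDs, so the planned lists of proline, dehydrin, abscisic acid and related genes could not be filled. Scripts (Python 3.11.15, numpy 2.4.6, pandas 2.3.3) were tested on simulated data. Alternatives were other pseudocounts, scalings, size limits and the other booting column, rescaled by the median ratio of the booting columns.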

Additional observations from a re-analysis of the deposited data

How the results depend on the processing

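Of 100 recalculated log2 changes of P5CS2 and DHN1, 97 kept their direction and their side of the size rule, 3 fell short of the rule and 0 turned round. The 3 were P5CS2 between Ds3 and Ds1, at -2.00 with a pseudocount of 5 FPKM, -1.44 with quantile normalization and -1.74 with totals rescaled without the most abundant loci. The change as deposited, -2.01, lies at the limit of the rule. Not all of the 100 were free to move. The other booting value was first rescaled by the median ratio of the booting columns, 0.863. Both genes lie close to that ratio, so their changes came back almost the same. DHN1 lay far under 10 FPKM over development, which fixed its side of the rule there. With a pseudocount of 5 FPKM the loci past the rule numbered 806, 839 and 773 for Ds1, Ds2 and Ds3 against booting, 137, 14 and 245 for Ds2 against Ds1, Ds3 against Ds2 and Ds3 against Ds1, and 93, 42 and 92 for milky against booting, maturity against booting and maturity against milky. At a ratio of 2 the same counts were 3959, 4093, 3831, 1093, 381, 1803, 987, 348 and 1341. As reported they were 1430, 1578, 1393, 297, 46, 489, 201, 95 and 219. Both shifts follow from the construction of the rule. The nearest genes depended strongly on the measure. With a pseudocount of 5 FPKM, 2 of the 5 named for P5CS2 and 3 of the 5 for DHN1 were again among the nearest 5, and with Pearson r 0 of 5 for either; r ignores the size of a change. Counts of pathway lists were not run, since the lists could not be filled. No paired analysis was possible because each column combines both libraries of a group and carries no replicate number; for the same reason no library could be left out. Read depth is unknown, which limits the booting, milky and maturity values of DHN1 most.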

Other observations

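None of the 4 genes with IDs next in number to P5CS2 had its order of Ds1 above Ds2 above Ds3 above booting. Sobic.003G355900 read 25.0, 32.5 and 30.2 FPKM in Ds1, Ds2 and Ds3, against 42.1 FPKM in booting, and 52.8, 69.0 and 55.4 FPKM in booting, milky and maturity. Sobic.003G356100 was low throughout, at 2.73, 2.74 and 2.23 FPKM in Ds1, Ds2 and Ds3, against 1.21 FPKM in booting, and 1.40, 1.67 and 1.01 FPKM in booting, milky and maturity. Sobic.003G355800, one further along, read 120, 30.3 and 41.3 FPKM in Ds1, Ds2 and Ds3, against 61.0 FPKM in booting, and like P5CS2 it was lowest at the milky stage, with 70.6, 48.2 and 115 FPKM in booting, milky and maturity. Sobic.003G356200 was lower in the Ds groups, at 9.21, 3.40 and 3.66 FPKM in Ds1, Ds2 and Ds3, against 16.5 FPKM in booting, but it shared the milky dip, with 21.5, 8.61 and 18.1 FPKM in booting, milky and maturity.

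Beside DHN1, Sobic.009G116600 was listed at 0 in all 7 columns and Sobic.009G116500 and Sobic.009G116766 stayed under 0.1 FPKM. Sobic.009G116832, one further along, read 105, 43.9 and 34.3 FPKM in Ds1, Ds2 and Ds3, against 0.503 FPKM in booting, and 0.582, 0.580 and 0.206 FPKM in booting, milky and maturity. It was thus low over development and high in the Ds groups, as DHN1 was, but highest in Ds1, where DHN1 had its lowest Ds value. These genes were picked by ID alone, their values carry no replicate error, and the table does not say what they encode.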
